A study of Homo sapiens with 12 samples.

Results

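A group of 8 genes of vesicle tethering at the Golgi was followed through 2 exon inclusion tables of a pair of prostate cancer cell lines: USO1, GOLGA2, GOLGA3, GOLGA4, GOLGB1, GOLGA5, TRIP11 and GCC2. The 8 genes were chosen by family, around a USO1 exon picked from its difference in inclusion between the lines in the RASL-seq table. Their exons were found by matching the strand, exon length and flanking intron lengths of each event to annotated genes. An event is 1 internal exon between 2 given flanking exons, counted as included or skipped. The members held 7 of the 2023 events of the RASL-seq table and 132 of the 114816 events of the RNA-seq table, in 8 of the 12978 genes named in either table.

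The lines are PC3E and GS689.Li (GS689 below), both derived from the prostate cancer line PC3. PC3E is known as an epithelial and GS689 as a mesenchymal derivative. The labels give both as wild type and name no agent beyond the growth medium, DMEM/F12 with serum, nonessential amino acids and G418. Cells were plated overnight before harvest. Each line had 3 libraries by RNA-seq and 3 by RASL-seq, an assay in which pairs of probes that anneal side by side on a splice junction are ligated and counted by sequencing. Nothing in the labels says that the libraries came from separate cultures, so the spread given here is that between libraries and may be technical.

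USO1 (also called p115) and the golgins are long coiled-coil proteins that stand out from Golgi membranes and catch transport vesicles before fusion. USO1 binds vesicles from the endoplasmic reticulum and between cisternae and links them to GOLGA2 (GM130) on the cis face and to GOLGB1 (giantin). TRIP11 (GMAP-210) also sits on the cis side, GOLGA5 and GOLGB1 are anchored by a membrane span at their end, GOLGA3 is a golgin recruited from the cytosol, and GOLGA4 and GCC2 carry a GRIP domain that places them on the trans-Golgi network. Small GTPases of the Rab and Arl families recruit or bind most of them.

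The exons on which the values below turn are printed first, 5′ to 3′ on the strand of the gene, from GENCODE 29 transcripts. In the first 4, capitals mark the exon and lower case the 15 bases of the neighbouring exons on each side. The USO1 exon is the one with the large difference between lines, the GOLGA4 exon of the same length is shown beside it, and those of GOLGA2 and GOLGA5 are exons whose RNA-seq sets stood apart.
USO1, 21 nt, chr4:76716489-76716509, plus strand: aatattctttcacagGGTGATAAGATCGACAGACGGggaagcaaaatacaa
GOLGA4, 21 nt, chr3:37378634-37378654, plus strand: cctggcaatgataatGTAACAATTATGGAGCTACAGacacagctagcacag
GOLGA2, 81 nt, chr9:131035064-131035144, minus strand: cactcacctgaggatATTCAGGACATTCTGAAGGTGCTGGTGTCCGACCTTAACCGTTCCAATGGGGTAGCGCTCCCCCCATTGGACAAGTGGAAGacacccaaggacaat
GOLGA5, 64 nt, chr14:93303731-93303794, plus strand: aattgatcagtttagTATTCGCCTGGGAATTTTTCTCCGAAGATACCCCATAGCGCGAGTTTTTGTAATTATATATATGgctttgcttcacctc
One GOLGB1 exon occurs in a shorter and a longer version. The longer is given alone, with capitals for the 15 bases at its 5′ end that the shorter version lacks.
GOLGB1, 123 nt, chr3:121438493-121438615, minus strand: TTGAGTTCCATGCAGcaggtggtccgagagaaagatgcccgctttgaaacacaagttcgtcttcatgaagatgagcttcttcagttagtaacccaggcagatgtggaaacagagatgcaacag
A GOLGA4 exon near the end of the gene holds a stop codon in the annotated frame. Its first 30 bases are shown, with the stop codon in capitals.
GOLGA4, 63 nt, chr3:37402734-37402796, plus strand: tttacttcacctcgcagtggtatcttcTGA

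Positions refer to hg19, as in the files, and start at 1. The USO1 exon is exon 15 of 26 in the annotated transcript that holds it. It is coding over its whole length and adds 7 codons, and 1 coding transcript without it is annotated. The 21 nt exon of GOLGA4 is also coding and of 7 codons. The 2 GOLGA2 exons of 81 nt described below add 27 codons each, and the GOLGB1 exon adds 36 or 41. By contrast, the 64 nt exon of GOLGA5, exon 12 of 13, is coding with a length that is not a multiple of 3.

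The RASL-seq libraries held between 615758 and 954120 counts and the RNA-seq table between 93842790 and 120853566 inclusion and skipping counts per library. In RASL-seq, PC3E replicate 2 stood apart from the other PC3E libraries: its inclusion shares differed from theirs with a chi-square per degree of freedom of 4.20 and 3.15, against 1.52 to 1.80 for the other pairs within a line. The RNA-seq table numbers 2 sets of 3 libraries, and its header ties neither set to a line. RNA-seq values are therefore given by set and library, with no line assigned, no mean and no test. All RASL-seq events lie on the plus strand, so GOLGA2, GOLGA3, GOLGB1 and TRIP11, on the minus strand, have RNA-seq values only. Of the marker genes with a RASL-seq total, LSR, OCLN, LLGL2 and SPINT2 (4 of 4 epithelial markers) were lower in GS689. The mesenchymal filament gene VIM stood at 185 ± 25.2 CPM (counts relative to the total of the library) in PC3E and 4259 ± 122 in GS689 (SD, n = 3 each; limma-voom adjusted p = 4.82e-09). Prostate luminal and haematopoietic markers had 0 genes in the RASL-seq table.

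The USO1 exon was included in most USO1 junction counts of PC3E and in few of GS689. In PC3E the RASL-seq libraries counted 565, 445 and 532 inclusion against 154, 104 and 149 skipping reads, or inclusion levels of 78.6, 81.1 and 78.1%. In GS689 they counted 40, 19 and 12 inclusion against 1046, 1134 and 684 skipping reads, or 3.68, 1.65 and 1.72%. All 3 PC3E libraries lay far above all 3 GS689 libraries. The means were 79.3% ± 1.58 and 2.35% ± 1.15 (SD, n = 3 per line), a difference of -76.9 percentage points, and -76.0 without PC3E replicate 2. By absolute difference the exon ranked 2 among 1124 tested events, whose median was 2.14 percentage points. These are the values on which the exon was picked, so they are a description without a test.

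**Figure D1:**
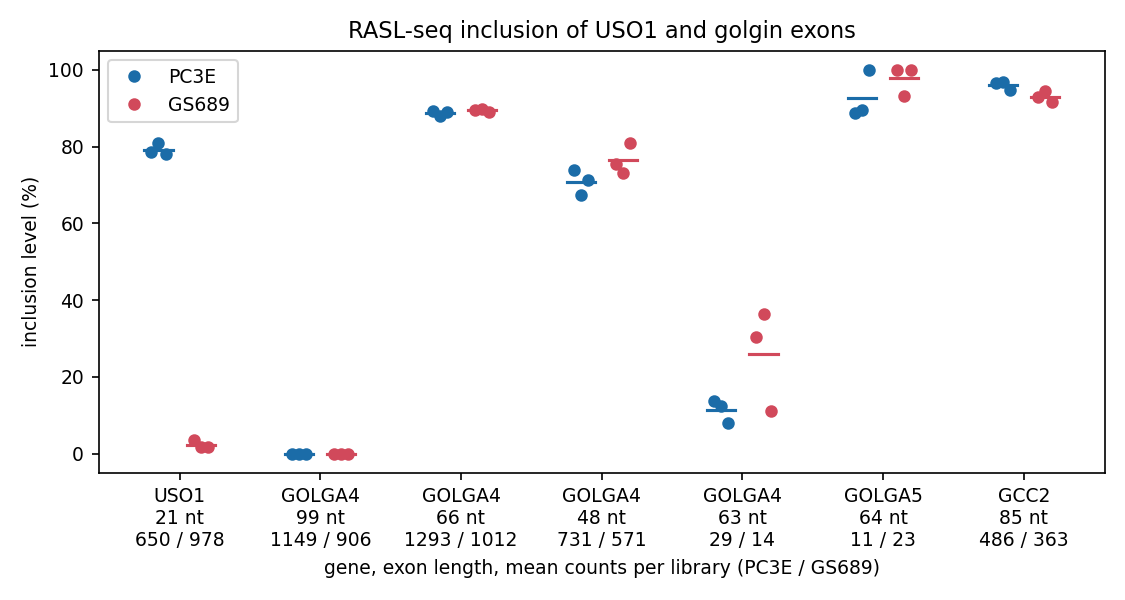
RASL-seq inclusion level in percent (vertical axis) of the 7 member exons, with 1 point per library, blue for PC3E and red for GS689, and a bar at each mean. Exon length and mean counts per library (PC3E / GS689) are under each gene. The USO1 libraries lie at 78.1 to 81.1% in PC3E and 1.65 to 3.68% in GS689, while the GOLGA4 48 nt and GOLGA5 points of the lines overlap.

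In the RNA-seq table the same USO1 exon had 464, 520 and 499 inclusion and 44, 34 and 51 skipping reads in the libraries of set 1, and 22, 22 and 21 inclusion and 377, 457 and 308 skipping reads in those of set 2. Inclusion corrected for effective length was 89.8, 92.7 and 89.1% in set 1 and 4.64, 3.86 and 5.38% in set 2. The sets did not overlap. The 95% Wilson intervals, which cover counting error only here and below, ran from 86 to 94.7% in set 1 and from 2.56 to 8.11% in set 2. The gap between the sets was 83.7 percentage points, rank 4 among 10817 events of intermediate inclusion (at least 20 length-corrected counts in every library and a median inclusion of 5 to 95%). Of the other 6 USO1 events in the table, 5 were above 95% inclusion and 1 had too few counts.

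GOLGA4, GOLGA5 and GCC2 were the other members with RASL-seq events. Beside USO1, 4 of their 6 events had enough counts to enter the fit, and none of the 4 was called. In all, 1 of 5 tested member events was called (adjusted p under 0.05 with inclusion moving by 5 percentage points or more), against 5.69% of all 1124 tested events. In 2 of 5 the lines did not overlap, against 23.6% of all. USO1 accounts for the called event, and these counts hold the contrast on which it was picked, so nothing is read from them.

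**Figure D2:**
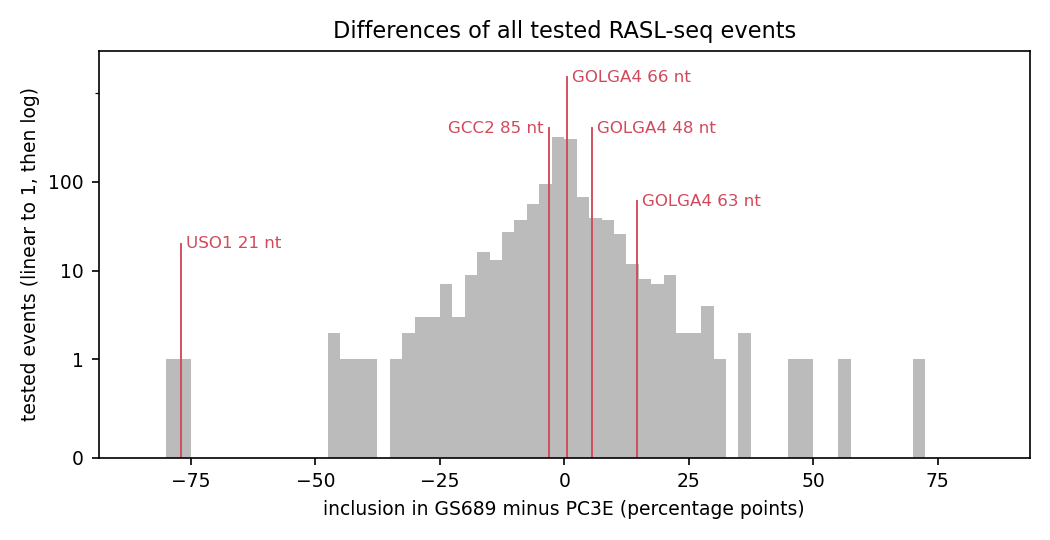
Difference in mean RASL-seq inclusion, GS689 minus PC3E, in percentage points (horizontal axis), of the 1124 tested events, with the number of events per bin on an axis that is linear to 1 and logarithmic above. Red lines mark the 5 tested member events and their height carries no value. USO1 lies at -76.9, and the other 4 lie between -3.08 and 14.5.

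GOLGA2, the cis-Golgi golgin that binds USO1, had 15 RNA-seq events, of which 3 were of intermediate inclusion. Its 81 nt coding exon at chr9:131035064-131035144, printed above, stood at 35.1, 40.0 and 36.8% in set 1 and at 56.1, 68.0 and 57.3% in set 2. Set 2 lay above set 1 in every library, opposite in direction to the USO1 exon. Skipping reads numbered 162 to 363 per library, and the Wilson intervals ran from 31.3 to 43.4% in set 1 and from 51.7 to 71.6% in set 2. A transcript with this exon as exon 3 of 17 and 3 coding transcripts that skip it are annotated.

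A later GOLGA2 exon, also of 81 nt, at chr9:131029473-131029553, entered 2 events that differ in the flanking exon. In 1 event it stood at 27.0, 53.2 and 26.9% in set 1 and 26.2, 30.3 and 22.4% in set 2. Here the sets overlapped, and the library listed second in set 1 lay above the other 5. In the other event, whose skipping junction also passes over a 39 nt exon, the levels were 93.3, 99.2 and 90.4% in set 1 and 82.0, 85.5 and 75.2% in set 2. Those sets did not overlap, but the event rests on 3, 1 and 6 skipping reads in set 1 and 11, 11 and 9 in set 2, and its intervals overlap (80.8 to 99.9% and 60.2 to 91.5%).

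GOLGB1, the giantin that USO1 also binds, had 16 events, 4 of them intermediate. The 108 nt version of its exon at chr3:121438493-121438600 stood at 76.5, 77.0 and 84.5% in set 1 and at 47.2, 38 and 37.6% in set 2. Set 1 was higher in every library, the direction of the USO1 exon, with a smaller gap. The 123 nt version stood at 79.3, 80.0 and 85.5% against 52.0, 42.4 and 44.3%. Both versions share their skipping reads (23, 16 and 26 in set 1, 66, 97 and 39 in set 2) and most of their inclusion reads, so they are 1 observation and not 2. Intervals of the shorter version ran from 66.5 to 89.0% in set 1 and from 28.3 to 54.7% in set 2.

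The neighbouring 117 nt exon of GOLGB1 (chr3:121441109-121441225, coding) showed overlapping sets, at 87.7, 92.5 and 92.9% and at 88.0, 86.4 and 89.8%. This event is not separate from the exon in 2 versions. Its inclusion counts hold that exon's skipping junction, and its own skipping junction passes over that exon. A 195 nt exon (chr3:121387161-121387355), annotated in a noncoding transcript only, was rarely included: 11.8, 7.11 and 7.18% in set 1 and 12.5, 8.70 and 8.82% in set 2. Among the intermediate exons of GOLGB1, then, the exon in 2 versions was the one whose sets stood apart.

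TRIP11, the cis-side golgin GMAP-210, had 1 intermediate event of 12. That event counts a 41 nt coding exon (chr14:92478099-92478139), and its skipping junction also passes over an 87 nt exon. The 41 nt exon stood there at 84.9, 92.2 and 83.8% in set 1 and at 89.3, 89.0 and 81.9% in set 2, with overlap. Only 2 to 10 skipping reads per library lay behind it, and the intervals spanned 67.6 to 97.8%. No GENCODE 29 transcript skips this exon with these flanks. With the 87 nt exon as its flank, the 41 nt exon stood at 99.5 to 100% in every library, on 0 to 1 skipping reads.

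GOLGA5, the membrane-anchored golgin-84, had 1 intermediate event of 5, its 64 nt exon. RNA-seq inclusion was 91.2, 92.0 and 89.7% in set 1 and 94.7, 96.0 and 95.8% in set 2. The sets did not overlap, although they differed by few percentage points and their intervals did overlap (85.7 to 94.2% and 92.5 to 97.3%). In RASL-seq the exon had 5 to 33 counts per library, too few of the skipped form to be tested. Skipping counts were 1, 2 and 0 in PC3E, beside 8, 17 and 5 inclusion counts, and 0, 1 and 0 in GS689, beside 33, 14 and 21, and the lines overlapped.

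GOLGA3, a golgin also known as golgin-160, had 3 intermediate events of 16, and the sets overlapped in each. Its 273 nt coding exon (chr12:133393126-133393398) stood at 89.3 to 93.0% in set 1 and 89.2 to 92.4% in set 2. A pair of exons annotated only in a noncoding transcript entered events that differ in the flanking exons. Between the same flanking exons, the 107 nt exon (chr12:133404193-133404299) stood at 44.6, 25.0 and 39.7% in set 1 against 55.4, 42.8 and 41.5% in set 2. The 95 nt exon (chr12:133404394-133404488) stood there at 9.15, 4.92 and 1.78% against 5.68, 5.71 and 9.15%. The pair shares its skipping reads there, 36 to 77 per library. With the 107 nt exon as its flank, the 95 nt exon stood at 92.2, 95.7 and 100% against 95.6, 93.2 and 100%. With the 95 nt exon as its flank, the 107 nt exon stood at 100, 95.2 and 98.9% against 97.9, 97.6 and 96.8%. Levels thus depend on the flanks and are not compared between these exons.

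GOLGA4, the trans-Golgi golgin with a GRIP domain, was the member with most events, 49 in RNA-seq and 4 in RASL-seq. Its 99 nt exon (chr3:37308333-37308431, coding in the annotation) had 0 inclusion counts in every RASL-seq library, against 610 to 1293 skipping counts. A count of 0 allows a share of up to 0.232 to 0.492% per library. In RNA-seq it had 2 inclusion reads in 1 library of each set and 0 in the other 4. This exon was thus near absent in both assays.

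The 66 nt coding exon that follows (chr3:37315027-37315092) was included at like levels in both lines, 89.3, 88.1 and 89.0% in PC3E and 89.5, 89.7 and 89.1% in GS689. Means were 88.8% ± 0.619 and 89.4% ± 0.346 (SD, n = 3 per line), and the lines overlapped. RNA-seq put it at 74.8 to 79.7% in set 1 and 74.3 to 80.7% in set 2. Its RASL-seq inclusion count is the skipping count of the 99 nt exon, identical in all 6 libraries, because both are the same junction.

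The 48 nt coding exon of GOLGA4 (chr3:37327505-37327552) stood at 74.0, 67.4 and 71.3% in PC3E and 75.6, 73.1 and 80.9% in GS689. PC3E replicate 1 lay above GS689 replicate 2, so the lines overlapped; the means were 70.9% ± 3.28 and 76.5% ± 3.99 (SD, n = 3 per line). In RNA-seq it entered 2 events by flanking exon. Levels were 90.5, 86.8 and 81.1% in set 1 and 92.0, 89.1 and 82.1% in set 2 with the nearer flank. With the farther flank they were 87.8, 64.8 and 87.0% and 91.9, 83.9 and 86.1%. The 57 nt exon next to it (chr3:37330726-37330782) stood at 90.6, 76.9 and 91.8% and at 93.6, 90.0 and 90.2%, and shares its skipping reads with the latter event. In both, the library listed second in set 1 was the lowest, and it held 40 skipping reads against 12 to 22 in the others.

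The 21 nt exon of GOLGA4, of the same length as the USO1 exon, did not follow it. It stood at 89.9, 92.5 and 89.6% in set 1 and 92.8, 93.2 and 90.9% in set 2, on 50 to 102 skipping reads per library, and the sets overlapped.

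The 63 nt exon of GOLGA4 that holds a stop codon was the 1 of the 6 intermediate GOLGA4 events whose sets stood apart. In the annotated transcript the frame runs for 27 bases into the exon and ends at the stop codon printed above, whereas transcripts that skip it run on for 21 coding bases in the next exon. RNA-seq inclusion was 46.3, 31.7 and 49.1% in set 1 and 61.2, 61.7 and 61.3% in set 2. All libraries of set 2 lay above those of set 1, with intervals of 57.9 to 65.0% against 29.6 to 52.2%. In RASL-seq the exon stood at 13.8, 12.5 and 8.0% in PC3E and 30.4, 36.4 and 11.1% in GS689. GS689 replicates 1 and 2 lay above PC3E and GS689 replicate 3 lay within its range, on 9 to 32 counts per library. The event was not called, with means of 11.4% ± 3.04 and 26.0% ± 13.2 (SD, n = 3 per line). Counts were few and the GS689 libraries lay far apart, and the part of each in this was not tested.

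The assays gave different levels for some of these exons. Pooled over all RASL-seq libraries the 63 nt exon of GOLGA4 stood at 17.1%, against an RNA-seq median of 55.1%. The 48 nt exon stood at 73.1 against 88.0% and the 66 nt exon at 89.1 against 78.8%. RASL-seq counts only the upstream junction of the included form, without length correction, and the part of this in the gap was not tested.

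GCC2, the other trans-Golgi golgin with a GRIP domain, had 12 RNA-seq events, none of them intermediate. Its 85 nt exon (chr2:109067484-109067568, exon 3 of 23, coding) is also in the RASL-seq table. Inclusion was 96.5, 96.9 and 94.8% in PC3E and 92.9, 94.5 and 91.6% in GS689. Every PC3E library lay above every GS689 library, by a narrow margin: the means were 96.1% ± 1.11 and 93.0% ± 1.43 (SD, n = 3 per line), and the event was not called. In RNA-seq it stood at 97.9, 96.2 and 94.7% in set 1 and 97.8, 98.0 and 93.6% in set 2, with overlap.

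**Figure D3:**
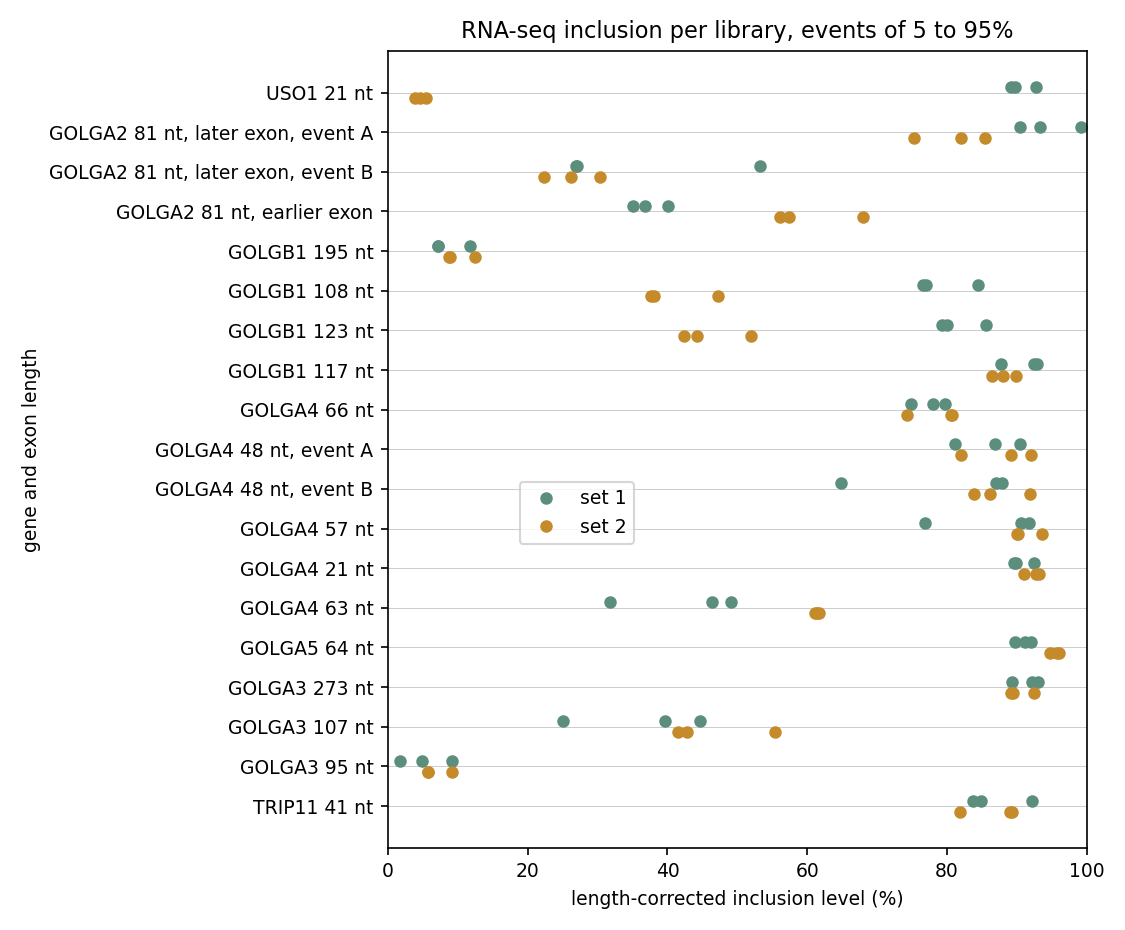
Length-corrected RNA-seq inclusion in percent (horizontal axis) of the 19 member events of intermediate inclusion, with 1 point per library, green for set 1 and ochre for set 2. For GOLGA2, earlier and later are in transcript order; event A of the later exon has the skipping junction that also passes over a 39 nt exon, and event A of the GOLGA4 48 nt exon has the nearer flank. USO1 has sets at 89.1 to 92.7% and 3.86 to 5.38%, with GOLGB1 108 nt next in the size of the gap.

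Over the 132 RNA-seq events of the members (83 exons), 116 had at least 20 length-corrected counts in every library. Of these, 94 were above 95% inclusion, 3 below 5% and 19 between, while the remaining 16 of the 132 had too few counts. The sets did not overlap in 7 of the 19, against 24.6% of the 10817 intermediate events of all genes. These were 1 event of USO1, 2 of GOLGA2, 2 of GOLGB1 (the same exon), 1 of GOLGA4 and 1 of GOLGA5. The count holds the USO1 exon around which the genes were chosen, and events that share reads, so nothing is read from it. Among the 97 member events with enough counts outside this range, the sets did not overlap in 7, against 7.34% of 74603 such events of all genes. The gaps were small, from 0.13 to 2.53 percentage points. The widest, named after its values were seen, was that of a 198 nt exon of GOLGA3 (chr12:133358882-133359079), at 95.4, 94.5 and 94.9% in set 1 and 98.0, 98.2 and 97.9% in set 2. The 19 intermediate events fall on 17 exons of 21 to 273 nt. A length that is a multiple of 3 was found in 13 of the 17 (76.5%), against 44.6% of 9263 such exons of all genes, with versions of an exon counted separately in both. With the GOLGB1 versions counted once it was 12 of 16. Only length was counted: the 13 include the 195 nt GOLGB1 exon of a noncoding transcript and the 63 nt GOLGA4 exon that holds a stop codon. This is given as a description.

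The summed counts of USO1 also differed between lines. Its RASL-seq total, inclusion plus skipping counts of its 1 event, was 849, 713 and 764 CPM in PC3E and 1115, 1395 and 1128 in GS689. All GS689 libraries lay above all PC3E libraries. The log2 difference was 0.64 (SE 0.138), 1.56-fold higher in GS689, from means of 775 ± 68.9 and 1213 ± 158 CPM (SD, n = 3 per line), and 0.58 without PC3E replicate 2. From the skipping counts alone, which hold the form that dominates in GS689, the log2 difference was 2.81. The total rests on the event whose inclusion differs, so inclusion probes gave most counts in PC3E and skipping probes most in GS689. Whether both forms are counted with like efficiency was not tested. In bulk RNA a total cannot tell fewer cells with a transcript from less of it per cell.

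GOLGA4 totals were 3894, 3533 and 4024 CPM in PC3E and 3083, 3445 and 2690 in GS689. GS689 lay below PC3E in every library, with a log2 difference of -0.32 (SE 0.125). GCC2 totals were 614, 541 and 583 CPM in PC3E and 432, 505 and 407 in GS689, again lower in every GS689 library, with a log2 difference of -0.37 (SE 0.139). GOLGA5 had low totals that overlapped between the lines, 10.6, 24.7 and 5.61 CPM against 33.9, 18.1 and 34.0. The total of 1 of the 4 members, USO1, was called (adjusted p under 0.05), against 29.8% of 1317 genes tested. That total is made only of the counts of the event picked on this contrast, so the call is no separate test of USO1. The lines did not overlap for 3 of 4, against 46.4% of all. Shares of this size in the background leave nothing to read from the members' counts.

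In the RNA-seq table the totals of USO1 overlapped between sets, at 40.9, 38.9 and 37.4 CPM of the table in set 1 and 43.9, 46.0 and 37.7 in set 2. Totals here sum over all events of a gene, so genes with more events have higher totals, and levels are not compared between genes. TRIP11 stood at 16.4, 11.9 and 16.0 in set 1 and 43.4, 42.2 and 29.3 in set 2, a ratio of medians of 2.63. GOLGA5 stood at 26.6, 34.2 and 26.8 against 55.6, 57.7 and 54.0, a ratio of 2.08. GOLGA3 stood at 42.9, 34.2 and 53.8 against 79.0, 91.8 and 60.6, a ratio of 1.84. In these 3 members all libraries of set 2 were above those of set 1, while the median gene was 0.11 higher in set 2 on the log2 scale.

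The other 5 members overlapped between the sets. GOLGA2 ranged from 57.6 to 81.5 in set 1 and from 66.1 to 83.8 in set 2, GOLGB1 from 53.4 to 66.2 and from 60.9 to 88.5, GOLGA4 from 202 to 231 and from 185 to 243, and GCC2 from 13.9 to 17.2 and from 13.6 to 17.6. Sets that did not overlap were thus found in 3 of 8 members, against 48.3% of 10813 genes. USO1, GOLGA2, GOLGA4 and GOLGB1 had intermediate exons with sets apart and totals that overlapped.

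**Figure D4:**
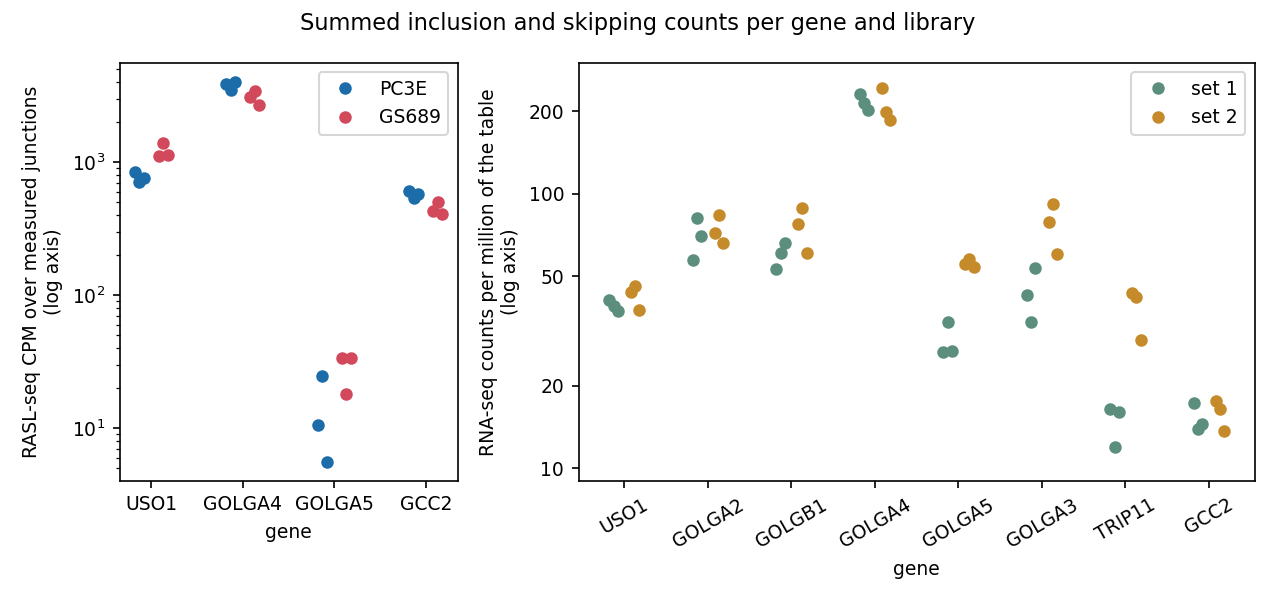
Summed inclusion and skipping counts per gene and library on log axes: left, RASL-seq CPM of the 4 members on the plus strand, blue for PC3E and red for GS689; right, RNA-seq CPM of the table for all 8 members, green for set 1 and ochre for set 2. USO1 is the member whose RASL-seq points are all higher in GS689 (1115 to 1395 against 713 to 849 CPM), and GOLGA5, GOLGA3 and TRIP11 are those whose RNA-seq sets do not overlap.

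The 5 events of other genes whose inclusion was most like that of the USO1 exon over the 6 RASL-seq libraries were found by the root mean square difference. The 93 nt exon of SLK, a STE20-like kinase, differed from it by 2.21 percentage points, at 81.4% ± 2.79 in PC3E and 3.19% ± 0.273 in GS689 (SD, n = 3 per line). It was far closer than the next, a 73 nt exon of TCF7L2, a transcription factor of the Wnt pathway, at 19.4 percentage points. A 167 nt exon of USPL1 followed at 24.1, a 48 nt exon of YAP1, a Hippo pathway coactivator, at 25.4, and a 69 nt exon of TCF7L2 at 26.0. Their levels were unlike those of USO1. Means in PC3E and GS689 were 66.6 and 26.1% (TCF7L2, 73 nt), 68.3 and 33.5% (USPL1), 56.7 and 30.2% (YAP1), and 46.7 and 18.4% (TCF7L2, 69 nt). USPL1 had few counts (means of 49.3 and 28.0) and a wide spread in GS689 (SD 10.9, n = 3). The ranking uses the values on which the USO1 exon was picked. In RNA-seq the SLK exon stood at 55.2 to 67.3% in set 1, below the USO1 exon, and at 0.318 to 1.39% in set 2. The sets of the 48 nt YAP1 exon were nearer to each other, at 58 to 68.3% and 42.4 to 43.3%.

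Around the members, a list of 128 other genes of Golgi transport was examined, holding other golgins, multisubunit tethers, SNAREs, Rab and Arf regulators and coats. Only 10 had a RASL-seq event. Of 7 genes (9 events) tested for inclusion, 1 was higher in GS689 and 0 lower, where 5.69% of all tested events were called, so 1 call among 9 events is no result about the list. The list had a median absolute difference of 1.22 percentage points against 2.14 over all tested events. The called gene was ARFGAP1, which activates GTP hydrolysis by Arf on COPI coats. Its 110 nt exon rose from 85.4% ± 0.401 to 91.1% ± 0.719 (SD, n = 3 per line; adjusted p = 0.0154 in the quasi-binomial fit with limma moderation). The call was lost without PC3E replicate 3, GS689 replicate 1 or GS689 replicate 2 (adjusted p = 0.0592, 0.0588 and 0.0688) and with limma on the log2 ratio (adjusted p = 0.161).

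Of 9 genes of the list tested for totals, 3 were higher in GS689 and 0 lower. With 29.8% of all genes called, this share is near the background and is no result about the list. The median log2 difference was -0.025 against -0.0049 for all genes. CUX1, a locus that also encodes the golgin CASP by alternative splicing, rose from 1349 ± 102 to 2027 ± 153 CPM (log2 difference 0.59, SE 0.121, limma-voom adjusted p = 0.00412). This total sums all measured events of the locus, and the part of CASP in it was not tested. SCFD1, which acts with the Golgi SNARE syntaxin 5, rose from 2418 ± 430 to 3572 ± 264 CPM (0.57, SE 0.142, limma-voom adjusted p = 0.0109). ARFGAP1 rose from 2541 ± 20.004 to 3325 ± 152 CPM (0.39, SE 0.107, limma-voom adjusted p = 0.0201; SD, n = 3 per line for each gene). The ARFGAP1 total missed the threshold without PC3E replicate 1 or 3 and without GS689 replicate 2 or 3 (limma-voom adjusted p = 0.0525, 0.0621, 0.0518 and 0.0663), and with skipping counts alone (0.0609). CUX1 and SCFD1 passed in all 14 settings run. The 71 nt exon of SCFD1 stood at 88.1% ± 1.25 in PC3E and 84.4% ± 1.14 in GS689 (SD, n = 3; adjusted p = 0.0455 in the fit with limma moderation), a difference of -3.70 percentage points that is below the minimum of 5.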

How the data were processed

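RNA of PC3E and GS689 cells was extracted with Trizol and prepared with the TruSeq Stranded Total RNA kit, per the labels' protocols. STAR 2.5.2a, kallisto 0.43.0 and hg19 are named in the submitters' processing notes, with no role given, and how the RASL-seq probes were made and counted is not given in the sources used here. The authors deposited 1 table of whole-number counts per assay. In RASL-seq each library is a column of paired counts, and in RNA-seq, per the file headers, the counts of both forms come in 2 numbered sets (3 libraries each) with effective lengths of 102 to 202 for inclusion and 101 for skipping. A read can count in several events. Of the columns holding sample values, 0 were left out. Empty RASL-seq cells were read as 0.

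The first RASL-seq count of a pair was taken as inclusion: its share correlated with RNA-seq inclusion over 1635 events (r = 0.87, across events, which are not independent replicates), and in 51 of 51 pairs it equalled the skipping count of an event sharing its upstream junction, against 0 of 41 for the downstream junction. Inclusion is the inclusion count over the sum of both, divided first by effective length in RNA-seq. Genes were named by structure against GENCODE 29, which is on another build: 1934 of 2023 RASL-seq events (95.6%) and 109246 of 114816 RNA-seq events (95.1%) matched 1 gene. No coordinates were converted.

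In RASL-seq, inclusion was fitted over all events averaging 10 or more counts in a library, with 10 of the rarer form, by a quasi-binomial model with dispersions moderated by limma 3.58.1 (R 4.3.3) and held at 1 or above; gene totals, as CPM scaled by a trimmed mean of log ratios, were fitted with limma-voom. Adjusted p-values follow Benjamini-Hochberg over all events or genes tested. Both fits were tested on simulated data.

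The members, the gene lists and the rules were chosen with earlier results of these data known. Named RNA-seq events are those of intermediate inclusion or in the RASL-seq table; named genes of the Golgi transport list are those called. Pairing by replicate number was checked and is given with the alternatives, which are other pseudocounts, filters, scalings, minimum changes, lengths and left-out libraries.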

Additional observations from a re-analysis of the deposited data

How the results depend on the processing

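Without PC3E replicate 2 or any other single library, the number of RASL-seq inclusion calls over all genes lay between 44 and 81 and that of total calls between 276 and 473, against 64 and 393 with all libraries. The USO1 exon difference lay between -77.6 and -76.0 percentage points, and the log2 difference of the USO1 total between 0.53 and 0.70. The inclusion calls numbered 28 by limma on the log2 ratio with a pseudocount of 0.5 and 25 with a minimum change of 20 percentage points. With skipping counts alone, 905 genes could be tested and 242 totals were called, and the USO1 log2 difference was 2.81. Dividing each inclusion count by 2 put the USO1 exon difference at -64.5 percentage points. Other filters, scalings and pseudocounts kept the counts of calls within 1.5-fold. The member RNA-seq events of intermediate inclusion numbered 19, 17 with raw counts in place of length-corrected ones and 16 with at least 50 counts in every library. Counting the GOLGA4 junction that enters 2 events once, an alternative chosen after seeing the data, moved the log2 ratio of mean totals from -0.313 to -0.322.

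Pairing by replicate number was not shown, and 3 libraries per line cannot settle it. Deviations from the line means of same-numbered libraries correlated at 0.037, 0.0038 and 0.034 for inclusion and at 0.25, 0.16 and -0.019 for totals. Between unlike numbers the correlations ran from -0.101 to 0.0599 for inclusion and from -0.26 to 0.10 for totals. With the replicate block the calls numbered 88 and 465. Not every library correlated best with its own number.

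Depth limits the GOLGA5 exon and the 63 nt GOLGA4 exon in RASL-seq and the TRIP11 exon in RNA-seq.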
